A study of Drosophila melanogaster with 3 samples.

Results

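Genes that copy DNA and drive the cell cycle were examined as places where the tagged zinc finger protein D19A was found on the chromatin of Drosophila embryos. The group was a named list of 35 symbols. It was chosen with earlier results of these data known, so its shares beside those of all genes are a description only. The symbols were looked up in the Ensembl gene models, and 34 were found among the 13945 protein-coding genes on the 6 chromosome arms used. The 34 genes comprised 15 replication genes, 8 regulators of the passage from G1 to S phase and 11 mitotic regulators. The symbol lat was not a gene name of the annotation and was left out. A gene counted as marked at its promoter when a peak summit lay within 250 bp of any of its transcription start sites (TSSs), and as marked in the gene when a summit lay anywhere inside it.

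D19A is a C2H2 zinc finger protein of the ZAD family. The material was whole embryos of both sexes pooled, aged 0 to 20 h, from a transgenic line that stably expresses D19A with eGFP at its C-terminus. The labels describe a precipitation with anti-GFP but list D19A as the antibody. There were 3 biological replicates of this 1 group and no other group, so comparisons were made between genes. All replicates carried the transgene, and the promoter that drives it is not given in the sources used here. Embryos of all these ages and all tissues were mixed, so strong binding in few cells and weak binding in many cannot be told apart.

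Peaks were read from 5 lists the authors deposited, which are 1 list per replicate, 1 called on the pooled replicates (30000 peaks each), and an optimal list of 7769 peaks kept by an irreproducible discovery rate (IDR) analysis, which compares peak ranks between replicates. The IDR list was the same set as the 7769 pooled peaks of highest signal. Each peak carries a signal value from the authors with no stated normalization. It was used to rank peaks within a list, with rank 1 the strongest, and signal values were compared only within a list. The 3 replicates share 1 control file, and no read counts were given, so the depth behind each value is unknown. Intervals on shares of genes are 95% Wilson intervals and cover the counting of genes only.

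Before S phase, the origin recognition complex (ORC) binds replication origins and, with the loading factor Cdt1, places the MCM helicase on DNA. Cyclin E with Cdk2 and the transcription factor pair E2f1 and Dp promote entry into S phase, and E2f1 with Dp activates many replication genes, among them PCNA. Cdk1 with the A and B cyclins, switched on by the phosphatase string, drives mitosis, and the anaphase promoting complex with fzy or fzr destroys the cyclins afterwards. In Drosophila embryos the earliest nuclear cycles run on maternal products without gap phases, and zygotic string transcription later times the divisions.

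The sequences at 4 member summits outside exons are shown as examples from the 3 roles, too few to compare the roles. They are 101 bp windows centred on the summit, read from the RefSeq genome assembly with the arms and lengths of dm6, on the strand of the gene, and runs of at least 6 A or T bases are in capitals. The Mcm2 window (chr3R:8264676-8264776, plus strand) lay upstream of its TSS, the Cdk1 window (chr2L:10386404-10386504, minus strand) upstream of its TSS, and the CycE window (chr2L:15747108-15747208, minus strand) and the E2f1 window (chr3R:21637304-21637404, minus strand) in introns.
Mcm2: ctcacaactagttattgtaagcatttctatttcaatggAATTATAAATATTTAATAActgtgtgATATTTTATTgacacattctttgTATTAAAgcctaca
Cdk1: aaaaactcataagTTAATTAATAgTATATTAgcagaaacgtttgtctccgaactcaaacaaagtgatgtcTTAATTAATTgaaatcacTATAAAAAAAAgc
CycE: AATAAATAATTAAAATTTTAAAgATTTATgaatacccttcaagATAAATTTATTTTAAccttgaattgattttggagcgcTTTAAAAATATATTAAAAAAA
E2f1: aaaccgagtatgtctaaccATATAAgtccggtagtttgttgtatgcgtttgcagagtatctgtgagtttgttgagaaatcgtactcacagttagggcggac
A and T made up 75.2% of the Mcm2 window, 74.3% of the Cdk1 window, 83.2% of the CycE window and 57.4% of the window at the strongest E2f1 summit. Single windows do not stand for their genes, since the other CycE summit window held 58.4% and those of E2f1 ranged from 50.5% to 81.2%. The mean was 65.5% over the 17 E2f1 summits and 65.4% over the 14 IDR summits of the other members. The longest run of A and T was 22 bases at CycE, 19 at Mcm2, 11 at Cdk1 and 6 at E2f1. Over the 31 IDR summits of the group, 17 of which lie at E2f1 alone, A and T content was 65.5% ± 10.2 (SD over summits), and over all 7769 IDR summits it was 67.5% ± 9.44. The difference was not tested, since summits of 1 gene are not independent.

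In the IDR list, 9 of the 34 genes were marked at the promoter (26.5%, 95% interval 14.6% to 43.1%), beside 15.3% of all protein-coding genes. They were Mcm2, PCNA and Ctf4 among the replication genes, E2f1 and Dp among the G1-S genes, and CycA, Cdk1, stg and aurA among the mitotic genes. Counting summits inside the gene added dup, Cdk4, CycE and fzr, which gave 13 of 34 genes (38.2%, 23.9% to 55.0%) beside 23.7% of all protein-coding genes. The background share lay inside the interval of the promoter count and just below that of the wider count. Members were longer than the average gene, with a median length of 2.87 kb against 2.17 kb, which bears on counts of summits inside genes, and its part in the count was not tested. Of the 9 promoters, 5 remained when each IDR peak also had to overlap one of the 7769 strongest peaks in replicates 2 and 3 (14.7%), beside 11.1% of protein-coding genes. The wider count was then 8 (23.5%) beside 18.7%, so both shares were nearer to the background than with the whole list. With replicates 1 and 3 the promoter count was 6 (17.6%) beside 10.7%, and with replicates 1 and 2 it was 8 (23.5%) beside 12.4%.

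The weaker part of the pooled list held many more of the genes. A pooled summit lay at the promoter of 23 of 34 genes (67.6%, 50.8% to 80.9%) beside 31.0% of protein-coding genes, and counting the gene body left 23 genes beside 38.9%. The replicate lists marked 23, 28 and 19 members at the promoter in replicates 1, 2 and 3 (mean 23.3 ± 4.51, SD, n = 3), beside 30.6%, 35.8% and 28.4% of protein-coding genes. Replicate 2 marked the most members and also the most protein-coding genes, and replicate 3 the fewest of both. Including gene bodies, the replicates marked 24, 28 and 21 members beside 39.7%, 43.3% and 38.7% of protein-coding genes. With each replicate kept to its 7769 strongest peaks, the counts at promoters were 10, 12 and 6 members beside 14.5%, 18.0% and 13.5%.

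**Figure D1:**
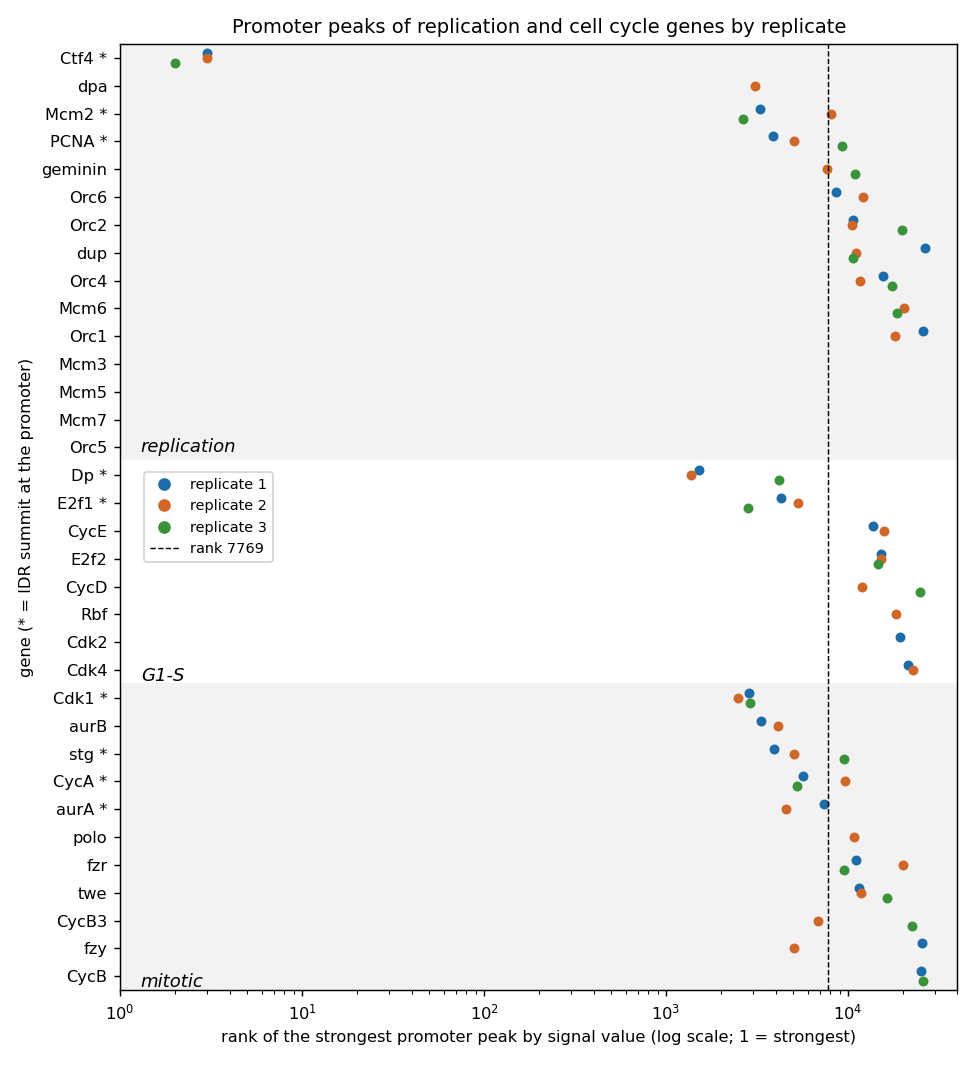
Rank (log axis, 1 = strongest) of the strongest peak with a summit within 250 bp of a TSS, for each of the 34 genes in each of the 3 replicate lists. An asterisk marks the 9 genes with an IDR promoter summit, the dashed line is rank 7769, and genes with no point had no promoter summit in that replicate. Ctf4 stands apart at ranks 3, 3 and 2, and Mcm3, Mcm5, Mcm7 and Orc5 have no point.

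Mcm2 alone of the MCM helicase and ORC genes was marked in the IDR list. The shares of all protein-coding genes were 15.3% at the promoter and 23.7% with gene bodies. So few MCM and ORC genes cannot show a share that differs from the background. Of the 6 MCM genes, Mcm2 carried the sole IDR promoter summit, 244 bp upstream of its TSS and at IDR rank 3030. The peaks overlapping it ranked 3272, 3515 and 2635 in replicates 1, 2 and 3, with signal values of 157, 261 and 165 on the separate scales of those lists. Its rank was thus of similar order in each replicate. In replicate 2 that peak's own summit fell beyond 250 bp, and the promoter summit there was a weaker peak at rank 8100. The Mcm2 summit lay 275 bp from the TSS of RPA1, which encodes the large subunit of the single-strand binding protein of replication, so it stood between a pair of replication genes.

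Mcm3, Mcm5 and Mcm7 had no summit at a TSS or in the gene in any of the 5 lists. Mcm6 had a weak promoter summit in the pooled list (rank 16654) and in replicates 2 and 3 (ranks 20399 and 18637), but none in replicate 1. The Mcm4 gene dpa had a promoter summit in replicate 2 alone, at rank 3094. The MCM genes encode subunits of a single helicase ring, and they did not share a peak pattern.

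No ORC gene had an IDR summit. The pooled list held promoter summits of Orc2 (rank 9853), Orc4 (rank 12338) and Orc6 (rank 14521), all beyond the last IDR rank. Orc2 ranked 10630, 10573 and 19728 and Orc4 ranked 15667, 11632 and 17542 in replicates 1, 2 and 3. Orc6 ranked 8577 and 12113 in replicates 1 and 2 and had none in replicate 3. Orc1, the largest ORC subunit and an ATPase, had promoter summits at ranks 25724 and 18194 in replicates 1 and 2 and no pooled summit. Orc5 had none in any list. The 4 genes without any summit, Mcm3, Mcm5, Mcm7 and Orc5, were 4 of the 34, while 49.9% of protein-coding genes had no summit in any of the 5 lists.

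Of the loading factor Cdt1 and its inhibitor geminin, Cdt1 alone had an IDR summit in its gene. The Cdt1 gene dup had an intronic IDR summit 1840 bp from its nearest TSS at rank 5523, with overlapping peaks at ranks 5550, 6120 and 5443. A further IDR summit, at rank 7023, lay 276 bp upstream of dup and 185 bp from the TSS of its neighbour SRPK, so the 250 bp limit left it out of the dup promoter. The peaks behind it ranked 16092, 5828 and 7692, weaker in replicate 1 than in the others. Weaker promoter summits of dup stood at pooled rank 19666 and at ranks 26440, 11144 and 10671 in replicates 1, 2 and 3. The gene for geminin had promoter summits in the pooled list at rank 8121, in replicate 2 at 7672 and in replicate 3 at 10871, and none in replicate 1.

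The fork genes held the strongest peak of the group. Ctf4, which joins the helicase to DNA polymerase alpha, carried the IDR peak of rank 3, with its summit 153 bp upstream of the TSS and a width of 1069 bp. Its signal value was 37612 in the pooled list, and the overlapping peaks had ranks 3, 3 and 2 and signals of 11788, 13795 and 12174 in replicates 1, 2 and 3. The next strongest IDR summit of any member had a signal of 2641. The summit was 75 bp from the TSS of CG8067, the head-to-head neighbour, and so lay closer to that gene than to Ctf4.

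PCNA, the sliding clamp of DNA polymerase, had an IDR summit 108 bp upstream of its TSS at rank 5072. Its peaks ranked 3891, 5047 and 9282 in replicates 1, 2 and 3, so that replicate 3 was the lowest and fell outside its 7769 strongest peaks.

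Among the G1-S regulators, E2f1 stood apart by its number of summits. E2f1, the activating E2F transcription factor, is 40.6 kb long and had 17 IDR summits, 1 of them just upstream of the gene, and the other members together had 14. Among all protein-coding genes, 8 had more IDR summits. Of the 356 genes between 30 and 50 kb long, the median was 1 IDR summit with quartiles of 0 and 4, and E2f1 had the highest count. These summits are not independent of one another, since they share a gene and some share an interval. Its counts among the strongest 7769 peaks were 19, 16 and 18 in replicates 1, 2 and 3 (17.7 ± 1.53, SD, n = 3), so each replicate held about as many as the IDR list.

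Of the 17 summits, 14 lay in introns, 2 in 5′ UTRs and 1 upstream, and 14 were over 1 kb from any E2f1 TSS. All 17 peaks were overlapped by a peak of every full replicate list, but this overlap was not counted over all IDR peaks. The overlapping peak fell outside the 7769 strongest of a replicate at IDR ranks 2356, 5104, 6114, 6242 and 7127. Those peaks ranked 8135 and 8641 in replicate 3, 8110 and 7851 in replicate 2, and 8350 in replicate 1. The summits at IDR ranks 3624 and 6114 shared a single replicate 3 peak, at rank 2179. The strongest of the 17 summits was at IDR rank 358 and is shown above as sequence. It had ranks 298, 479 and 312, and lay 1140 bp downstream of the TSS of transcript E2f1-RC. The next, at rank 361, had ranks 385, 464 and 260 and lay 3448 bp from its nearest TSS. The summits at ranks 786 and 876 were also intronic. The summit at rank 2284 lay 290 bp upstream of the TSS of E2f1-RE, just outside the promoter window. The promoter summits were weaker than these. They stood at rank 4303, 22 bp downstream of the TSS of E2f1-RD, and at rank 7127, 70 bp upstream of that of E2f1-RF. The former was also 34 bp from the TSS of an antisense RNA gene. Intronic summits at ranks 5104, 6114 and 6242 and a 5′ UTR summit at rank 5899 were weaker than the promoter summit at rank 4303.

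**Figure D2:**
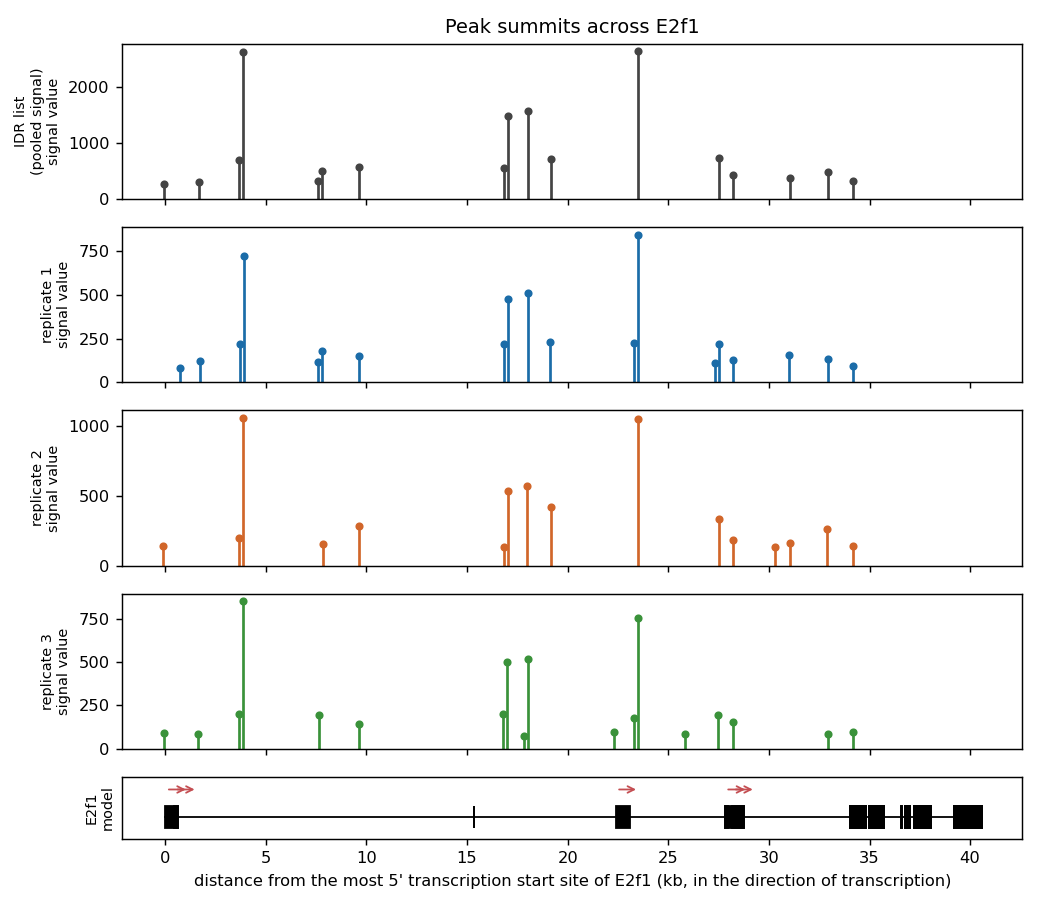
Peak summits across E2f1 against distance from its most 5′ TSS (kb, in the direction of transcription). Stem height is the authors' signal value on the separate scale of each list, for the IDR list and for the 7769 strongest peaks of each replicate, and the lowest panel shows exons as boxes and TSSs as arrows. The 17 IDR summits fall mostly in the introns, and the same 2 positions are highest in each of the 4 panels.

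Dp, the dimerization partner of both E2F proteins, had IDR summits at ranks 1257 and 1628. The latter lay 224 bp upstream of the TSS of transcript Dp-RC, close to the 250 bp limit, and inside an intron of the longer transcripts, with ranks 1528, 1377 and 4172. The former lay 419 bp downstream of that TSS, with ranks 1717, 1158 and 1278. E2f2, the repressive E2F, had no IDR summit, a pooled promoter summit at rank 13205, and replicate ranks of 15229, 15133 and 14617, which were close to each other. Rbf, the retinoblastoma family repressor of E2F, had its promoter summit at pooled rank 26400 and, among the replicates, in replicate 2 alone.

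The cyclin and kinase genes of G1 were marked inside the gene or weakly. CycE had 2 intronic IDR summits of high signal, at rank 725 with replicate ranks of 876, 654 and 779 and at rank 817 with ranks of 688, 1121 and 585. They lay 548 and 964 bp from the nearest CycE TSS, outside the promoter window, and its promoter summit in the pooled list was weak, at rank 24071. Cdk2, the kinase partner of cyclin E, had a promoter summit in replicate 1 alone, at rank 19354.

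Cdk4, the partner of cyclin D, had an intronic IDR summit at rank 5098, whose peak ranked 4933 and 4272 in replicates 1 and 2 and had no overlapping peak in replicate 3. A stronger IDR summit at rank 3510 lay 466 bp upstream of Cdk4 and was counted neither as promoter nor as gene. Weaker promoter summits of Cdk4 stood at pooled rank 19571 and at ranks 21260 and 22893 in replicates 1 and 2, with none in replicate 3. CycD had promoter summits in replicate 2 at rank 11889 and replicate 3 at 24828, and no pooled summit.

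Among the mitotic genes, Cdk1, stg, CycA and aurA had an IDR summit at the promoter, while CycB, CycB3, twe, aurB, polo and fzy had no IDR summit. Cdk1, the mitotic kinase, had an IDR summit 192 bp upstream of its TSS at rank 2440, with replicate ranks of 2848, 2474 and 2881. The spread between replicates was small, and the summit also lay 208 bp from the TSS of the mitochondrial ribosomal protein gene mRpS7. The phosphatase gene stg (string) had a summit 2 bp from the TSS of transcript stg-RA at rank 4832, with ranks 3909, 5046 and 9478, lowest in replicate 3. The related meiotic phosphatase gene twe had a pooled rank of 11273, with replicate ranks of 11480, 11775 and 16363.

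CycA, the cyclin that acts in S phase and mitosis, had an IDR summit 5 bp downstream of its TSS at rank 5760, with ranks 5675, 9671 and 5282, lowest in replicate 2. Of the B-type cyclins, CycB was marked in replicates 1 and 3 at ranks 25098 and 25748 and had no pooled summit, whereas CycB3 had a pooled summit at rank 11899 and ranks of 6887 and 22472 in replicates 2 and 3.

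Of the mitotic kinases, aurA, which acts at centrosomes, had an IDR summit 132 bp upstream of its TSS at rank 5922. Its peaks ranked 7394 and 4570 in replicates 1 and 2, and no peak of replicate 3 overlapped it. The summit was 187 bp from the TSS of CG3281. The gene of the chromosomal passenger kinase, aurB, had no pooled or IDR peak, although replicates 1 and 2 held promoter summits at ranks 3347 and 4142. Polo kinase had a promoter summit in replicate 2 alone, at rank 10864.

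The 2 activators of the anaphase promoting complex also differed. Their genes are 12248 bp (fzr) and 2142 bp (fzy) long, which bears on summits inside the gene. fzr, the Cdh1 homologue, had an intronic IDR summit 4650 bp from the nearest TSS at rank 3303, with replicate ranks of 2802, 4123 and 2783. An IDR summit at rank 6750 lay 485 bp upstream of fzr, outside the window. Weaker promoter summits of fzr stood at pooled rank 14631 and at ranks 11110, 20098 and 9526 in replicates 1, 2 and 3. fzy, the Cdc20 homologue, had a pooled promoter summit at rank 8800, ranks of 25624 and 5027 in replicates 1 and 2, and none in replicate 3.

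Replication genes were marked less often than mitotic genes in each replicate, but 3 replicates cannot show a difference by the test used. The shares with a promoter summit were 53.3%, 73.3% and 53.3% of the 15 replication genes in replicates 1, 2 and 3. For the 11 mitotic genes they were 81.8%, 90.9% and 63.6%, and for all protein-coding genes 30.6%, 35.8% and 28.4%. The differences, replication minus mitotic, were -28.5, -17.6 and -10.3 percentage points, with a mean of -18.8 ± 9.15 (SD, n = 3). The two-sided exact sign-flip permutation test over the replicates gave p = 0.25, the smallest it can give with 3 replicates. Among the 7769 strongest peaks of each list, the differences were -25.5, -27.9 and -4.85 points with a mean of -19.4 ± 12.7 (SD, n = 3; exact permutation p = 0.25). The shares there were 20.0%, 26.7% and 13.3% of replication genes and 45.5%, 54.5% and 18.2% of mitotic genes. Of all protein-coding genes, 14.5%, 18.0% and 13.5% were marked among those peaks, so both roles were near the background in replicate 3. The replicates measure the same genes, so a difference of the same sign in each of them does not speak to other choices of genes.

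In the IDR list the shares were 3 of 15 replication genes (20.0%, 7.05% to 45.2%), 2 of 8 G1-S genes (25%, 7.15% to 59.1%) and 4 of 11 mitotic genes (36.4%, 15.2% to 64.6%), with intervals that overlap widely and that include the 15.3% of all protein-coding genes. Including gene bodies they were 4, 4 and 5 genes, beside 23.7%. The order of the replication and mitotic shares held under some stricter rules and not under others. When each IDR peak had to overlap a strong peak of replicates 2 and 3, 2 of 15 replication genes (13.3%) and 1 of 11 mitotic genes (9.09%) were left, beside 11.1% of protein-coding genes, so the mitotic share was then the lower and both were near the background. With replicates 1 and 3 in that place, 2 replication genes (13.3%) and 2 mitotic genes (18.2%) were left beside 10.7%. In the pooled list, 9 replication (60.0%), 6 G1-S (75%) and 8 mitotic genes (72.7%) were marked at the promoter, beside 31.0%.

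**Figure D3:**
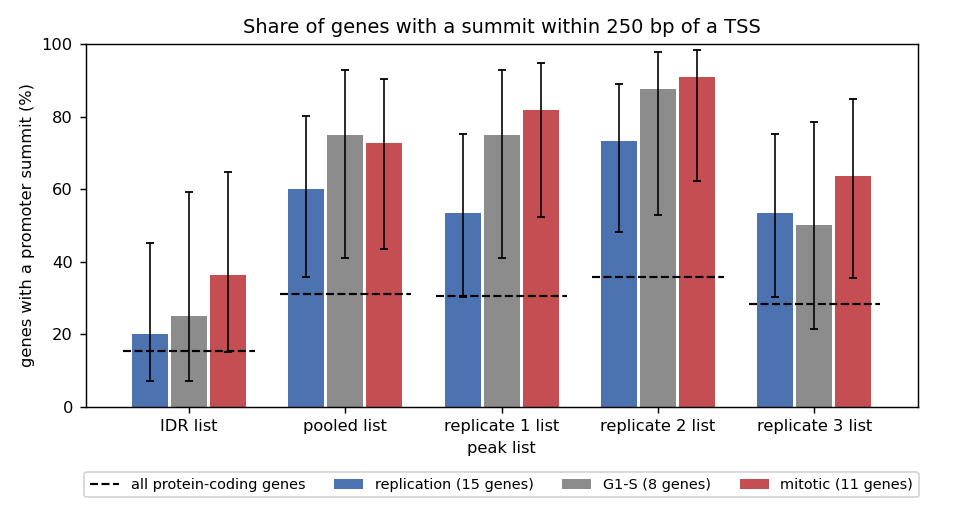
Percent of the 15 replication, 8 G1-S and 11 mitotic genes with a summit within 250 bp of a TSS in each of the 5 lists. Error bars are 95% Wilson intervals over genes, and dashed lines are the shares of all 13945 protein-coding genes. The replication bar is below the mitotic bar in each list, and their intervals overlap in each.

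Genes that work beside the members were counted in the same way. Of 36 other replication genes, 5 had an IDR promoter summit (13.9%, 6.08% to 28.7%), namely Cdc7, chif, RnrS, PCNA2 and Top2. Of 14 genes listed here as other G1-S genes there were 4 (28.6%, 11.7% to 54.6%), which were ago, CycH, mip130 and Myb. Of 63 genes listed as other mitotic genes there were 16 (25.4%, 16.3% to 37.3%). The role lists are broad, and a place in one does not mean that a gene acts at that step alone. The background for these counts is the same 15.3%, and each interval includes it except that of the other mitotic genes, whose lower bound is just above it. That mitotic count holds both Bub3 and Cap-D2, which share the same summit (rank 4360). The interval treats such genes as independent, so a bound this close does not set the group apart from the background. The order of these lists was not the same in the longer lists. In the pooled list the shares were 36.1% of the other replication genes and 33.3% of the other mitotic genes, beside 31.0%, and in replicate 1 they were 38.9% and 34.9%, beside 30.6%. In replicates 2 and 3 they were 50% and 52.4%, beside 35.8%, and 27.8% and 28.6%, beside 28.4%, so that most lay close to the background.

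The 8 strongest of these promoter summits were those of cnn, a centrosome scaffold gene (rank 872), pds5, a cohesin regulator (rank 900), Cdc16, a subunit of the anaphase promoting complex (rank 972), RnrS, the small subunit of ribonucleotide reductase (rank 1073), SAK, the centriole duplication kinase (rank 1795), ago, the F-box protein that targets cyclin E (rank 2915), pav, a cytokinesis kinesin (rank 3048), and asl, a centriole protein gene (rank 3071). In replicates 1, 2 and 3, cnn ranked 1083, 830 and 829 and RnrS ranked 1245, 917 and 1430, close to their IDR ranks. The pds5 summit was nearer to the TSS of Mppe (98 bp) than to that of pds5 (180 bp). Likewise, the ago summit was nearer to the TSS of CG1265 (229 bp) than to that of ago (241 bp).

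**Figure D4:**
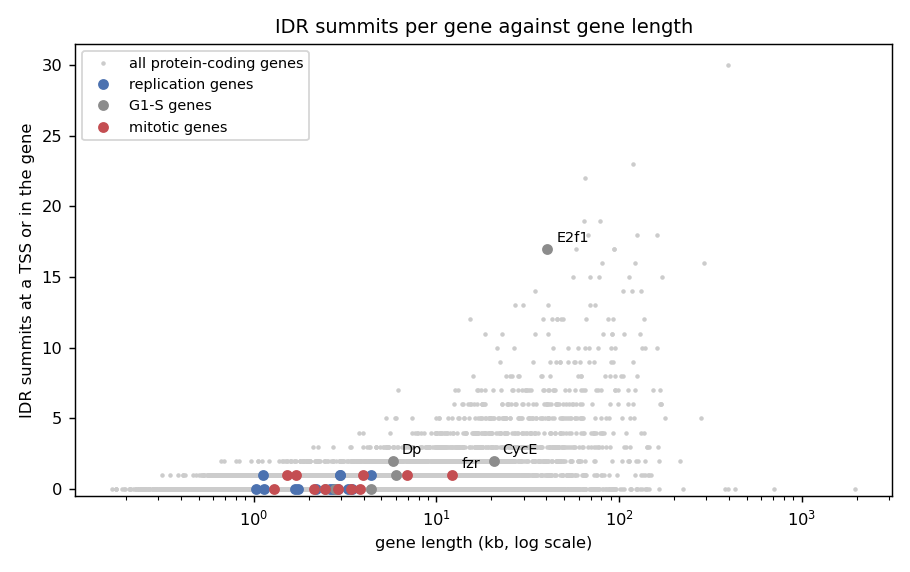
Number of IDR summits at a TSS or in the gene against gene length (kb, log axis) for all 13945 protein-coding genes, with the members in colour by role. E2f1 lies at 17 summits and 40.6 kb, and the other members have 0 to 2.

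The marked members were spread through the IDR list. The median of their best promoter ranks was 4303, against 3778 for all 2136 marked protein-coding genes, and 2 of the 9 (22.2%) were among its 1942 strongest peaks against 28.9% of marked genes. At 4 of the 9 promoters (44.4%) another gene had a TSS within 250 bp of the summit, against 42.6% of all marked genes. Of the 31 IDR summits in the group, 21 were intronic, 6 upstream and 4 in a 5′ UTR, and E2f1 gave 14 of the intronic ones. A peak of every full replicate list overlapped 29 of the 31, and the exceptions were those of aurA and Cdk4. Neither these positions nor this overlap was counted over all IDR summits, so they are not read as traits of the group.

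The promoters were also read for the sites of known cell cycle factors. Searched on both strands of the 250 bp before and 50 bp after the most 5′ TSS were 4 E2F site spellings (TTTCCCGC, TTTGGCGC, TTTCGCGC and TTTGCCGC), of which the second can overlap its own reverse complement, and the DREF site TATCGATA. An E2F spelling was found in 9 of 15 replication promoters (Ctf4, Mcm2, Mcm3, Mcm5, Mcm6, Orc1, Orc4, Orc5 and Orc6), in 0 of 8 G1-S promoters, in 1 of 11 mitotic promoters (stg), and in 6.43% of all protein-coding promoters. Of the members with an IDR promoter summit 3 of 9 held one, and of the others 7 of 25, so the shares were similar. The summits were counted at any TSS, whereas the spellings were sought at the most 5′ TSS, where 7 of the 9 genes were marked. The stg site lay 482 bp from the nearest IDR summit, which is at another TSS of stg. Sites are given for Mcm2, which had an IDR summit, and for Mcm3, Mcm5 and Orc5, which had no summit in any list. Each is a 30 bp stretch on the strand of the gene with the site in capitals, read from the RefSeq assembly of dm6 at chr3R:8264995-8265024, chrX:5323838-5323867, chr3R:10788545-10788574 and chr2L:13829836-13829865, all on the plus strand.
Mcm2: ttagcaaacatTTTCCCGCgcattttcgca
Mcm3: cacactacgctTTTCCCGCgaaaaaacttt
Mcm5: cggtaattttgGCGGCAAAatattcgcaca
Orc5: agagggaataaTTTGGCGCcatttcaatgg
Mcm2 and Mcm3 carried the same 8 letters, and the Mcm2 site was 283 bp from its IDR summit while the nearest IDR summit to the Mcm3 site was 13078 bp away. In the 101 bp windows around the IDR summits, an E2F spelling was found at 0 of 31 member summits and 0.965% of all IDR summits, and at so low a share 0 of 31 is not distinguishable from it.

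The DREF site was found in 3 of 15 replication promoters (Orc2, Orc5 and PCNA), 1 of 8 G1-S promoters (Cdk2) and 1 of 11 mitotic promoters (CycA), against 9.36% of all protein-coding promoters. Of the 31 member summit windows 1 held it, that of CycA, where the site lay 12 bp from the summit, and 0.695% of all IDR windows did. The CycA site (chr3L:11833571-11833600, minus strand) is shown with the site in capitals because it was the sole match of either motif under a member summit.
CycA: acgccacgaccTATCGATAgctggacagtg
At PCNA the DREF site lay 27 bp upstream of the TSS and 85 bp from the IDR summit. A match to letters is a description of the sequence and was not tested as a binding site of any factor.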

How the data were processed

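ChIP-seq peaks of D19A-eGFP were used from 3 biological replicates. Per the labels, coordinates are those of dm6 and fragments ranged from 200 to 800 bp. Not given in the sources used here are the aligner, the peak calling program and the threshold of the IDR analysis. The signal value and the −log10 q-value of each peak are the authors' deposited values. Because 7866 pooled peaks shared the highest −log10 q-value of 4.20, peaks were ranked by signal value. The deposited summit offset gave the summits, and 3 IDR summits outside their interval were kept.

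Gene models were those of Ensembl release 115. The members and lists were chosen with earlier results of these data known. The genes named were every member, with full values for those with an IDR summit, and of the other pathway genes the 8 of highest IDR signal at the promoter. Of the other symbols, CDC45L, SA, lmg and Spd-2 were not found and were skipped. Overlap meant at least 1 bp. Assignment of summits to genes was tested on simulated peaks. Shares carry 95% Wilson intervals, and the roles were compared with an exact sign-flip permutation test over replicates. Alternatives were windows of 100, 500 and 1000 bp, the most 5′ TSS, the stronger 50% of the IDR list, replicate support and the pooled list. Nothing says how the replicates were grown, so the spread between them may be partly technical. Python 3.11.15, pandas 2.3.3, numpy 2.4.6 and scipy 1.17.1 were used.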

Additional observations from a re-analysis of the deposited data

How the results depend on the processing

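The counts of marked genes depended on the window and on the list. The mean over replicate lists of the replication minus mitotic share stayed negative under the alternatives run on it (-7.47 to -26.7 points), with no p below 0.25 possible. With the 100 bp window on the full lists (-7.47 points) the permutation p was above that floor, so the difference was not negative in every replicate. In the IDR list the replication share was the higher in the stronger 50% (13.3% against 9.09%), with support from every replicate (13.3% against 9.09%), with 50% reciprocal overlap (6.67% against 0%) and without replicate 1 (13.3% against 9.09%). It was the lower with windows of 100, 500 and 1000 bp, with the most 5′ TSS alone (20.0% against 27.3%) and without replicate 2 or 3. The counts are given in the order members at the promoter, members at the promoter or in the gene, replication, mitotic and G1-S genes, which were 9, 13, 3, 4 and 2. With a 100 bp window they were 3, 8, 0, 2 and 1, beside 5.46% of all protein-coding genes at the promoter and 17.6% with gene bodies, and with the pooled list 23, 23, 9, 8 and 6, beside 31.0% and 38.9%. A 1000 bp window gave 4 G1-S genes (beside 24.5%), and the most 5′ TSS alone gave 1 (beside 13.2%). The stronger 50% of the IDR list gave 4 members, 7 with gene bodies, 1 mitotic and 1 G1-S gene, beside 7.82% and 15.1%. Overlap with a strongest peak of every replicate left 5 members, 8 with gene bodies and 1 mitotic gene, beside 10.2% and 17.8%. With 50% reciprocal overlap, 3 members (8.82%), 5 with gene bodies (14.7%), 1 replication and 0 mitotic genes were left, beside 7.24% and 13.5%. Leaving out each replicate in turn, under the same overlap rule, gave 5 to 8 members, 8 to 12 with gene bodies and 1 to 3 mitotic genes, beside 10.7% to 12.4% at the promoter and 18.6% to 20.4% with gene bodies. Windows of 500 bp gave 12 and 13 members, beside 20.1% and 26.2%. Counting Orc3 for lat, chosen after seeing the data because the RefSeq table lists lat as a synonym of both Orc3 and et, left the counts of marked genes at 9, 13 and 3, since Orc3 had no summit in any list. No paired analysis was possible because there was 1 group. Without read counts, a gene without a summit is one whose signal did not reach the 30000 peaks listed, not one shown to be unbound.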

Other observations

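Strong replicate peaks were missing from the pooled list at aurB and dpa. At aurB, peaks ranked 3347, 4142 and 4039 in replicates 1, 2 and 3, with summits 231, 231 and 309 bp from its TSS and q-values at the ceiling of each list, and no pooled peak overlapped them. At dpa, replicate 2 alone had a peak, at rank 3094, and it had no pooled counterpart either. Of the 7769 strongest peaks per replicate, 146 (1.88%), 259 (3.33%) and 143 (1.84%) overlapped no pooled peak, and 15 of those of replicate 1 (0.193%) were also among the strongest of both other replicates. Every IDR peak is also a pooled peak, so such places are not in the IDR list, and the IDR and pooled counts leave aurB out, whereas the promoter counts of replicates 1 and 2 include it.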
